A study of Mus musculus with 225 samples.

Results

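In single forelimb cells of E12.5 mice, 9 genes of activin and TGF-beta signalling were examined: the ligand genes Inhba, Tgfb1, Tgfb2 and Tgfb3, the follistatin genes Fst and Fstl1, the receptor genes Tgfbr1 and Tgfbr2, and the TGF-beta-induced matrix gene Tgfbi. They were chosen by name among the 23165 genes of the table of raw reads, and 8 of the 9 also had a row in the table of 10948 genes with normalized values, which lacked Tgfb1. The embryos were of a mixed C57Bl6CBAF1 background and heterozygous for Hoxd11::GFP, a tau-GFP knock-in at Hoxd11, and the brightest GFP cells of the autopod (the future hand) and of the zeugopod (the future forearm) were sorted, so that cells with little GFP were not sampled. Of 225 cells captured, 199 had normalized values, 76 of them from the autopod and the others from the zeugopod. The autopod cells came from runs NXT0072 (59 cells) and NXT0143 (17 cells) and the zeugopod cells from runs NXT0142 (58 cells) and NXT0143 (65 cells), so that the tissues met in NXT0143 only. Forelimbs of several embryos were pooled, by sources that differ on their number, and the files name no embryo for a cell. Each tissue was therefore a single pooled sample, its cells were not replicates, and no test between tissues or runs was made.

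Activins and TGF-betas are secreted dimers that bring type I and type II receptor kinases together, after which Smad2 and Smad3 are phosphorylated and enter the nucleus with Smad4. Follistatin, encoded by Fst, binds activin and blocks it, and latent TGF-beta is stored in the extracellular matrix until it is released. In the limb bud these ligands are known for acting on condensing cartilage, on tendon progenitors and on the tissue between the digits.

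Reads on genes numbered from 187344 to 9437447 per autopod cell (median 2830025) and from 186271 to 6801278 per zeugopod cell (median 3233736). A gene was counted as detected in a cell with at least 5 reads, and each share carries its 95% exact interval (Clopper-Pearson). The reads carried no molecular identifiers, so that intervals and limits cover counting error only. Levels are means over cells of log2(normalized value + 1), where the normalized value is the read count divided by a size factor per cell, plus 1, divided by gene length, and differences are differences of these means. A cell with 0 reads of a gene therefore sits at a floor set by the length of the gene, from 0.205 to 0.588 for the 8 genes. Because the scaling was centred within each run, counts per 1000000 reads on genes (CPM) stand beside differences of the 9 genes where they change a sign or the passing of a size of 1.

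Most cells carried markers of the tissue on their label, and those of autopod NXT0143 less often than the other autopod cells. At least 1 of Hoxd13, Hoxa13 and Msx1 was detected in 93.4% of autopod cells (98.3% in NXT0072 and 13 of 17, or 76.5%, in NXT0143) and in 4.88% of zeugopod cells, and at least 1 of Shox2, Meox2 and Hoxa11 in 83.7% of zeugopod and 13.2% of autopod cells (16.9% of those from NXT0072, but none of the 17 from NXT0143). The autopod cells of NXT0143 stood apart from those of NXT0072, with Hoxd13 in 11 of 17 against 54 of 59 cells, while Shox2 was detected in 0 cells of both sets. Many results on the autopod are therefore also given by run, and values that name no run cover both runs. No cell met the lists for muscle, epithelium, endothelium or macrophages. Myod1 and Myog had 0 reads in both tissues, Krt5 had 0 reads in both, and the summed endothelial and macrophage markers stayed under 1 CPM in each tissue. Epcam, at 44.9 CPM in the zeugopod and 2.69 in the autopod, was the most abundant epithelial marker. Of the blood list, Hba-x alone had a row, so this list could not be applied.

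The upstream sequences of Tgfb2 and Tgfbi are shown because this ligand gene and this target gene were both found more often in cells with cartilage markers than in other cells, in 3 of the 4 sets of tissue and run. RefSeq's table of promoters (GRCm38.p6) matched 7 of the 9 genes, with no entry for Fst and Tgfb3. Each line runs 5′ to 3′ from 250 bases before the RefSeq start and ends before the first base that GENCODE annotates to the gene. Tgfb2 lies at chr1:186705990-186706239 on the minus strand (250 bases) and Tgfbi at chr13:56609336-56609522 on the plus strand (187 bases). Capitals mark matches on either strand to the SMAD box CAGAC, the TATA box TATAAA, the E-box CACGTG and the GC box GGGCGG.
Tgfb2: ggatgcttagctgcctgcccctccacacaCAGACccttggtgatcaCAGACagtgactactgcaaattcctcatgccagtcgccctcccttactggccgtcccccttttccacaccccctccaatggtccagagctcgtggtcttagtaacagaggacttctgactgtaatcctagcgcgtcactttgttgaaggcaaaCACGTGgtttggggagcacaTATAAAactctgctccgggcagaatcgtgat
Tgfbi: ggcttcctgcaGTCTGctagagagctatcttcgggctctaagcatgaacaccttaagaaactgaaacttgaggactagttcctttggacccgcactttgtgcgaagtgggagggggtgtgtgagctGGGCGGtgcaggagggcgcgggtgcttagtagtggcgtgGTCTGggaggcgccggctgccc
Both stretches held 2 SMAD boxes, and Tgfbi had a GC box. Of 32851 promoter windows of 250 bases, 42.2% held at least 1 SMAD box and 32.7% at least 1 GC box. The share of windows with 2 SMAD boxes was not counted, and the stretch of Tgfbi is shorter than these windows, at 187 bases. Tgfb2 also held 1 TATA box (12.4% of windows) and 1 E-box (6.02%), and no GC box. The same window of Tgfbr2 held 1 SMAD box, and Tgfbr1 had 1 SMAD box in the window of 1 of its 2 starts and 2 GC boxes in that of the other. The window of Fstl1 held 2 GC boxes and none of the other motifs, that of Tgfb1 held 5 GC boxes, and that of Inhba held 1 TATA box. These matches describe letters and not sites of binding.

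The genes differed widely in how many cells carried them. Fstl1 was close to universal, Tgfb2, Tgfbr1 and Tgfbi were found in a large minority or a majority of cells, Inhba, Tgfb3, Tgfbr2 and Fst in small minorities, and Tgfb1 in none. The median cell carried 2 of the 9 genes in the autopod (range 0 to 5; 2 in NXT0072 and 3 in NXT0143) and 3 in the zeugopod (range 1 to 6; 3 in both runs).

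**Figure D1:**
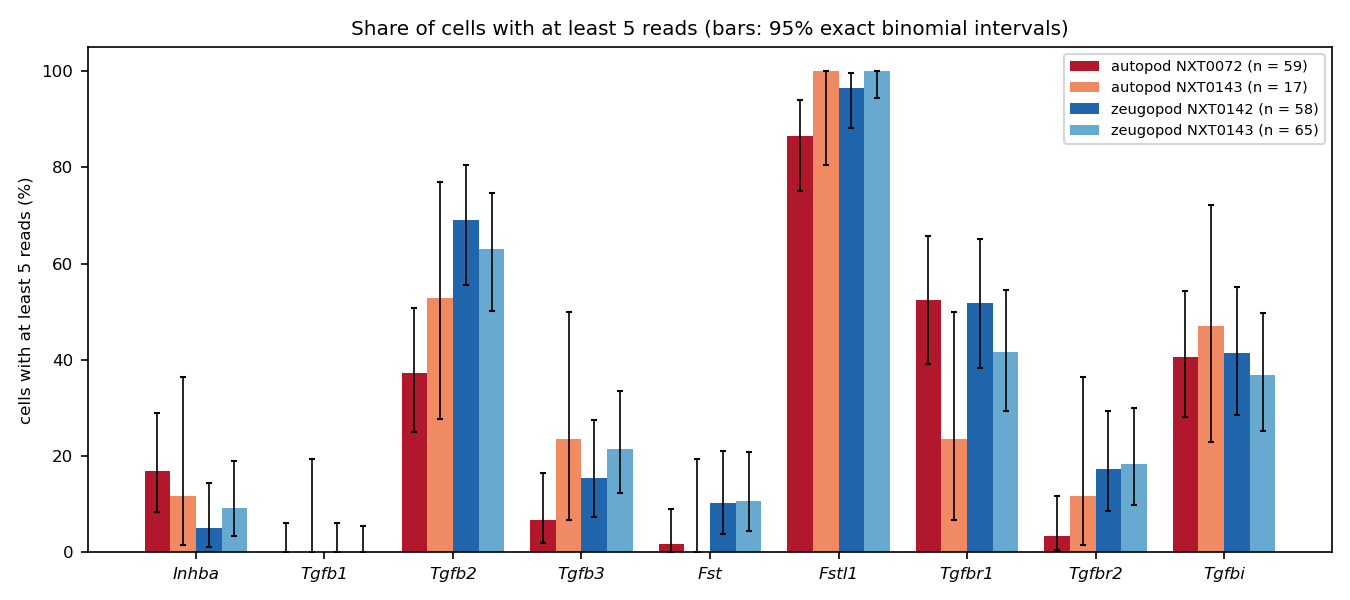
Share of cells with at least 5 reads of each gene (y axis, percent) in the 4 sets of tissue and run, with 95% exact binomial intervals. Fstl1 stood between 86.4% and 100% in all sets, Tgfb2 was lowest in the autopod cells of NXT0072 (37.3%), and Tgfb1 was at 0 throughout.

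Among the ligand genes chosen here, Tgfb2 was the one detected in the most cells. Tgfb2 (ENSMUSG00000039239; GRCm38 chr1:186622792-186705989, minus strand) encodes TGF-beta2. Detection reached 31 of 76 autopod cells (40.8%, 29.6 to 52.7%) and 81 zeugopod cells (65.9%, 56.8 to 74.2%). By run, the shares were 37.3% (25.04 to 50.9%) in autopod NXT0072, 52.9% (27.8 to 77.02%) in autopod NXT0143, 68.97% (55.5 to 80.5%) in zeugopod NXT0142 and 63.1% (50.2 to 74.7%) in zeugopod NXT0143. The autopod cells of NXT0143 thus lay between the other sets, with an interval that reached into each of them. Per cell, Tgfb2 ranged from 0 to 5543 CPM in the autopod (median 0.752) and from 0 to 3462 in the zeugopod (median 116.4). Among cells with at least 5 reads the medians were 232 CPM in the autopod and 335 in the zeugopod, or 83.7 and 159.4 as normalized values. By run, the latter were 56.2 in autopod NXT0072, 103.4 in autopod NXT0143, 204.1 in zeugopod NXT0142 and 88.6 in zeugopod NXT0143, and the tissues overlapped over almost the whole range of cells.

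The level of Tgfb2 was 2.79 ± 3.57 (SD over 76 cells) in the autopod and 4.78 ± 3.72 (SD over the zeugopod cells) in the zeugopod, a difference of -1.99 (-2.33 on CPM). Within NXT0143 the difference was -0.39 (-0.75 on CPM), and between autopod NXT0072 and zeugopod NXT0142 it was -2.91. Tgfb2 was therefore lower in the autopod in each comparison, but by less than 1 where tissues shared a run, and by -0.95 against all zeugopod cells when the autopod cells of NXT0072 were left out. In the zeugopod it also stood 1.18 higher in NXT0142 than in NXT0143 (0.90 on CPM). Summed over cells, the gene made up 245 CPM in the autopod, where 36.4% of its reads came from 1 cell, and 393 in the zeugopod.

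Tgfb3 (ENSMUSG00000021253; chr12:86056745-86079041, minus strand), the gene of TGF-beta3, was scarcer and more scattered, detected in 8 autopod cells (10.5%, 4.66 to 19.7%) and 23 zeugopod cells (18.7%, 12.2 to 26.7%). In the autopod the cells were split evenly between runs of unequal size, 4 of 59 in NXT0072 and 4 of 17 in NXT0143, and in the former 99.6% of the summed reads came from 1 cell. The level differed by -0.49 between all autopod and zeugopod cells, by 0.59 within NXT0143 and by -0.55 between the other runs, so that no common direction was found. Ttll5 is annotated on the other strand of this locus.

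Inhba (ENSMUSG00000041324; chr13:16011851-16031621, plus strand), which encodes the subunit of activin A, was found in 12 autopod cells (15.8%, 8.43 to 25.96%) and 9 zeugopod cells (7.32%, 3.40 to 13.4%). These intervals overlapped. Where detected it could be abundant, at up to 5491 CPM in an autopod cell and 1689 in a zeugopod cell. The difference of its level was 0.47 over all cells, -0.01 within NXT0143 (0.29 on CPM) and 0.73 between the other runs. The 9 detections among the 27 autopod NXT0072 cells with cartilage markers, against 1 among the 32 without, made up most of the autopod cells with Inhba.

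Tgfb1 (ENSMUSG00000002603; chr7:25687002-25705077, plus strand), the gene of TGF-beta1, had 0 reads in all 225 cells. For detection, the count of 0 allows a share of up to 3.95% of autopod and 2.44% of zeugopod cells as 3 counts of the total. The exact intervals end at 4.74% and 2.95%. These limits do not bound the share of cells that express the gene. Among all genes counted, 3086 (13.3%) had 0 reads in every cell, and whether reads of Tgfb1 could be assigned in the alignment cannot be read from the files.

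Fstl1 was the most abundant of the genes per length in every set of tissue and run. Fstl1 (ENSMUSG00000022816; chr16:37776873-37836514, plus strand) encodes follistatin-like 1, a secreted glycoprotein with a follistatin domain that is made by mesenchyme. It was detected in 68 autopod cells (89.5%, 80.3 to 95.3%) and in all but 2 zeugopod cells (98.4%, 94.2 to 99.8%). Its level stood at least 5.01 above that of the next gene in each set, a gap larger than the SD of Fstl1 over cells (1.94 to 4.35).

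In CPM, the cells of autopod NXT0072 ranged from 0 to 20184 with a median of 1270, and those of autopod NXT0143 from 30.5 to 20255 with a median of 5245. The zeugopod cells ranged from 0 to 25104 (median 5334) in NXT0142 and from 64.1 to 14098 (median 4655) in NXT0143. The low set was thus autopod NXT0072, and the autopod cells of NXT0143 centred where the zeugopod cells did. In autopod NXT0072, 25 of 59 cells (42.4%) lay under 1000 CPM, against 4 of 17 in autopod NXT0143 (23.5%), 5 of 58 in zeugopod NXT0142 (8.62%) and 8 of 65 in zeugopod NXT0143 (12.3%). The upper ends overlapped in all sets. Summed over cells, Fstl1 made up 2137 CPM in autopod NXT0072, 7488 in autopod NXT0143, 5994 in zeugopod NXT0142 and 5182 in zeugopod NXT0143.

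The level of Fstl1 was 8.79 ± 4.32 (SD over 76 cells) in the autopod and 10.97 ± 2.18 (SD over the zeugopod cells) in the zeugopod, a difference of -2.18 (-2.47 on CPM). Between autopod NXT0072 and zeugopod NXT0142 the difference was -3.17. Within NXT0143 it was 0.24, with means of 10.86 and 10.62, and -0.21 on CPM, so that the difference over all cells was not seen where both tissues were in 1 run. Against all zeugopod cells, the autopod stood at -0.10 when its NXT0072 cells were left out. Inside the autopod, NXT0072 stood at -2.68 against NXT0143 (-2.90 on CPM). This was more than the tissue difference over all cells (-2.18) and less than that between autopod NXT0072 and zeugopod NXT0142 (-3.17). Inside the zeugopod, NXT0142 stood at 0.73 against NXT0143, but at 0.02 on CPM, and the median of all genes differed by 0.36 there on the normalized scale. Run and tissue cannot be told apart for Fstl1 outside NXT0143, where the autopod had 17 cells.

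Other values moved with Fstl1 between the autopod runs, and their part in the difference was not tested. The 3 autopod markers summed to 2074 CPM in NXT0072 (most abundant Hoxd13, 1302) and to 471 in NXT0143 (most abundant Msx1, 273), with none of the 3 at 0. The 3 interdigit markers Aldh1a2, Msx2 and Bmp7 summed to 677 and 907, with none at 0 and Aldh1a2 the most abundant. The 4 cycling markers summed to 1180 and 464, with Top2a the most abundant in NXT0072, Mki67 in NXT0143 and none at 0. The 5 connective tissue markers summed to 170 and 348, against 2426 and 3715 in the zeugopod runs, and Lum was at 0 in autopod NXT0143. The cartilage markers Sox9, Col2a1, Acan, Col9a1 and Matn1 summed to 3401 and 2348, with Sox9 the most abundant and Matn1 at 0 in both. The tendon markers Scx, Tnmd and Tnc summed to 4.33 and 28.3, with Scx the most abundant and Tnmd at 0 in both. Depth differed little, with medians of 3076199 reads in autopod NXT0072 and 2641867 in autopod NXT0143. The medians of genes detected were 3528 and 3965. By a choice made after the values were seen, autopod cells were also split by Hoxd13. In NXT0143 the 6 cells under 5 reads of Hoxd13 had Fstl1 from 5764 to 20255 CPM (median 11860), and the 11 cells with Hoxd13 had from 30.5 to 12553 (median 2834). In NXT0072 the 54 cells with Hoxd13 had a median of 1325 and the 5 cells without it a median of 220, the opposite order.

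**Figure D2:**
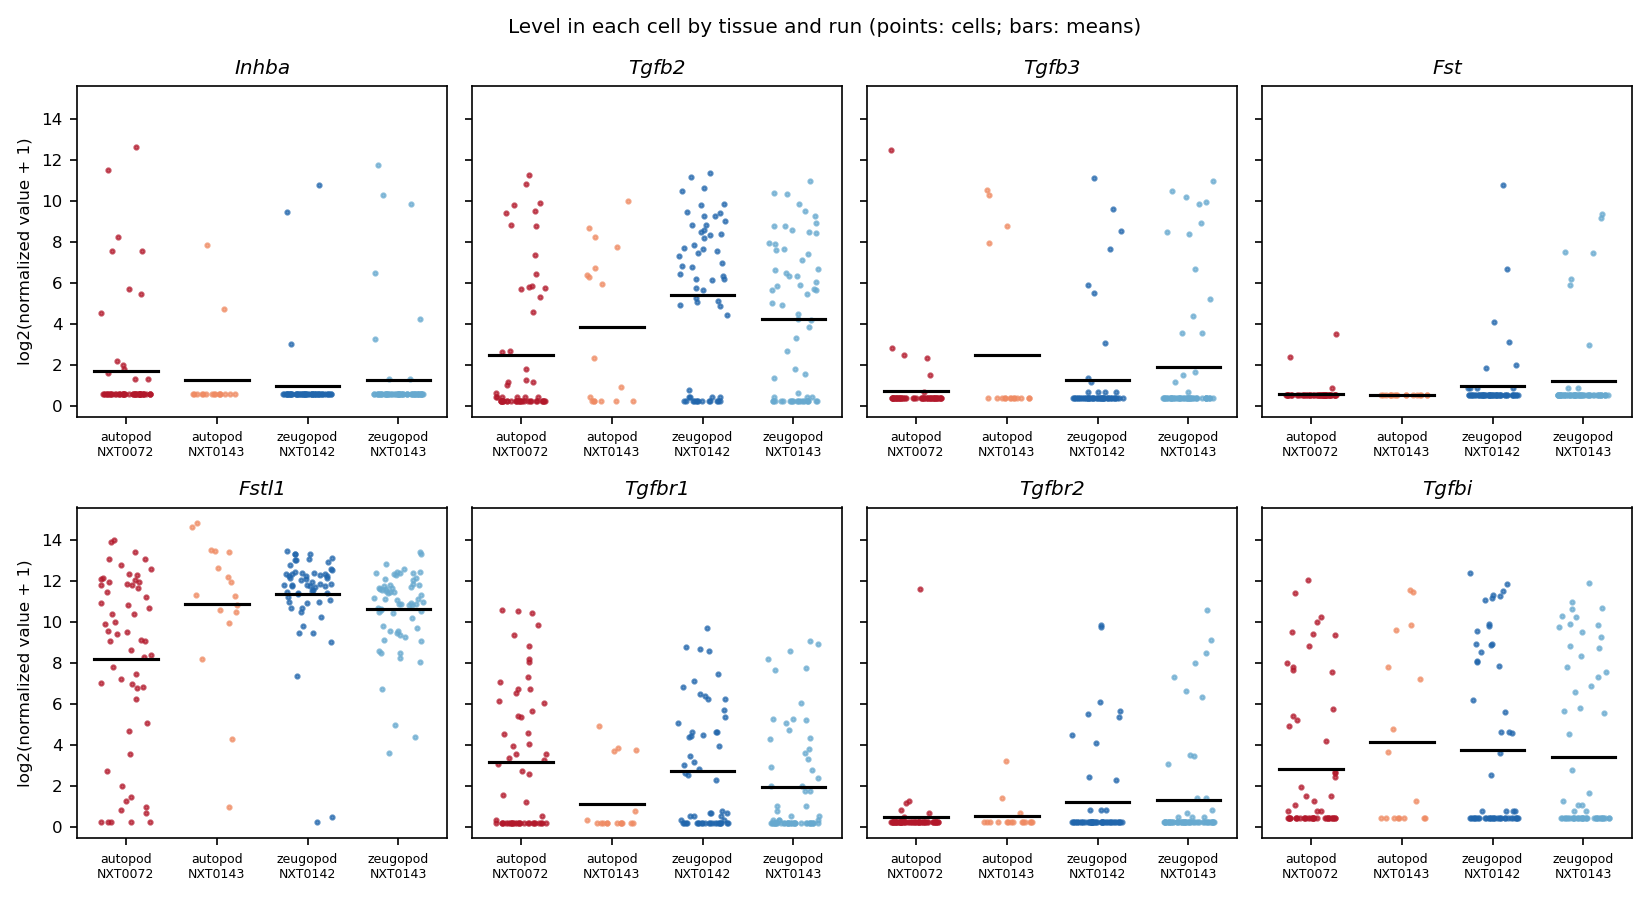
Level of each gene in each cell, as log2(normalized value + 1) (y axis), by tissue and run (x axis), where points are cells and bars are means. The mean of Fstl1 was lower in the autopod cells of NXT0072 (8.19) than in the other sets (10.62 to 11.35), and the remaining genes split into cells at the floor and cells spread above it.

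Fst (ENSMUSG00000021765; chr13:114452290-114458951, minus strand), the gene of follistatin, was rare and was found mainly in the zeugopod. It was detected in 1 of 76 autopod cells (1.32%, 0.03 to 7.11%) and in 13 zeugopod cells (10.6%, 5.75 to 17.4%), with 10.3% in NXT0142 and 10.8% in NXT0143. The share at this threshold was thus alike in both zeugopod runs, and the autopod interval overlapped that of the zeugopod. In the autopod it was 1 of 59 cells in NXT0072 and 0 of 17 in NXT0143, where the interval ended at 19.5%. At least 1 read of Fst was found in 3 autopod and 20 zeugopod cells, and after thinning of the cells to 500000 reads in 1 and 14. At least 5 reads remained after thinning in 1 autopod and 8 zeugopod cells. By run, the latter were 3.57% of thinned cells in zeugopod NXT0142 and 9.52% in zeugopod NXT0143, which were less alike. Its difference was -0.52 over all cells, -0.70 within NXT0143 and -0.38 between the other runs. No cell had at least 5 reads of both Fst and Inhba, for which the exact intervals end at 4.74% of autopod and 2.95% of zeugopod cells, while 3 zeugopod cells had at least 1 read of each.

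Tgfbr1 (ENSMUSG00000007613; chr4:47353222-47414931, plus strand), the type I receptor, was detected equally often in both tissues, in 35 autopod cells (46.1%, 34.5 to 57.9%) and 57 zeugopod cells (46.3%, 37.3 to 55.6%). By run it followed the reverse of Fstl1 in the autopod, with 31 of 59 cells in NXT0072 (52.5%, 39.1 to 65.7%) and 4 of 17 in NXT0143 (23.5%, 6.81 to 49.9%). The level in autopod NXT0072 was 2.02 above that in autopod NXT0143, and the summed reads were 211 and 9.75 CPM. The tissue difference was 0.38 over all cells, -0.83 within NXT0143 (-1.18 on CPM, past a size of 1) and 0.43 between the other runs. Without the autopod cells of NXT0072 it was -1.19.

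Tgfbr2 (ENSMUSG00000032440; chr9:116084293-116175360, minus strand), the type II receptor that binds the ligand, was the scarcer receptor. It was detected in 4 autopod cells (5.26%, 1.45 to 12.9%) and 22 zeugopod cells (17.9%, 11.6 to 25.8%). By run, it was detected in 2 of 59 autopod cells of NXT0072 (3.39%) and 2 of 17 of NXT0143 (11.8%, 1.46 to 36.4%). The difference of its level was -0.75 over all cells, -0.78 within NXT0143 and -0.70 between the other runs. On CPM these were -0.95, -1.04 and -0.82, so that on this scale the value within NXT0143 was past a size of 1. The 2 zeugopod runs had shares of 17.2% and 18.5%. In the autopod, 97.9% of its 1646 reads came from 1 cell. Both receptors together were detected in 2 autopod cells (2.63%, 0.32 to 9.18%) and 9 zeugopod cells (7.32%, 3.40 to 13.4%), of which 7 were among the 58 of NXT0142 and 2 among the 65 of NXT0143, and neither was detected in 51.3% and 43.1% of cells. A cell with both receptors and Tgfb2 or Tgfb3 was found 7 times in the zeugopod, 6 of them in NXT0142, and 0 times in the autopod. At this depth a gene with few transcripts can be missed in a cell, so that these are counts of detection and not of receptor-negative cells.

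Tgfbi (ENSMUSG00000035493; chr13:56609523-56639562, plus strand) encodes a matrix protein first known for its induction by TGF-beta. Detection was even, with 32 autopod cells (42.1%, 30.9 to 53.98%) and 48 zeugopod cells (39.02%, 30.4 to 48.2%), and the 4 sets lay between 36.9% and 47.1%. Cells ranged from 0 to 2752 CPM in the autopod (median 0.384) and from 0 to 5234 in the zeugopod (median 0.254), so that the tissues overlapped. Its difference was -0.42 over all cells, 0.76 within NXT0143 and -0.89 between the other runs.

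In the order of levels per length, Fstl1 came first in all 4 sets. Tgfb2, Tgfbi and Tgfbr1 took the next 3 places in autopod NXT0072 and in both zeugopod runs, and in autopod NXT0143 Tgfb3 (2.50) and Inhba (1.26) stood above Tgfbr1 (1.16). The lowest places, such as that of Fst above Tgfbr2 in autopod NXT0072 (0.601 and 0.519, with 1 and 2 cells of detection), lie near the floors and follow gene length as well. Below Fstl1, neighbours in the order lay at most 1.64 apart, and the SD of Tgfb2 over cells was 3.50 to 3.77 by set. Genes near the floor had smaller SDs, such as 0.46 for Fst in autopod NXT0072. These SDs describe the spread over cells and not the certainty of a place, and the order was not tested.

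**Figure D3:**
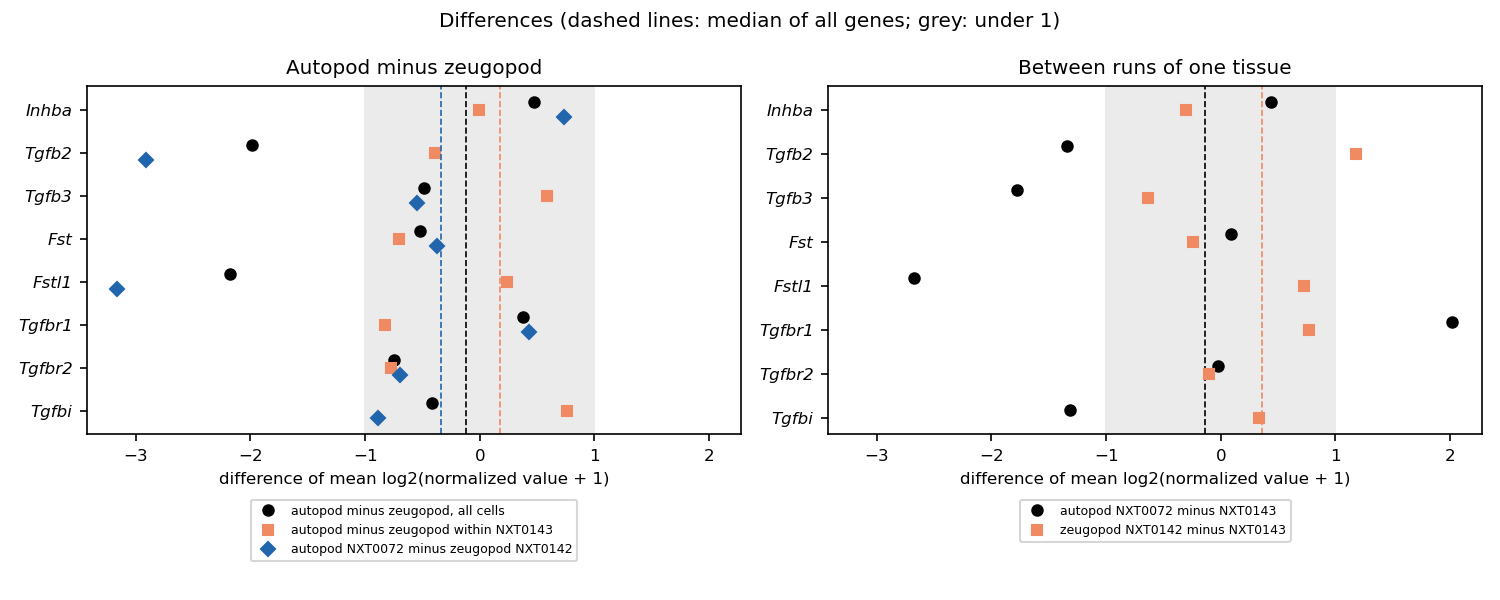
Difference of mean log2(normalized value + 1) for 8 genes (x axis), between tissues (left) and between runs of a tissue (right), where dashed lines mark the median of 4898 genes in the same comparison and grey marks sizes under 1. Fstl1 and Tgfb2 lay at -2.18 and -1.99 over all cells and at 0.24 and -0.39 within NXT0143.

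Against all genes, the tissue differences were read as follows. The background was the 4898 genes detected, at 5 reads or more, in no fewer than 25% of cells of one tissue or the other, and it held 4 of the 9 genes studied (Fstl1, Tgfb2, Tgfbr1 and Tgfbi). It is called all genes here, while counts of the 8 genes and of the lists include genes that miss this filter. Among every gene with normalized values, 2.83% were higher and 6.26% lower in the autopod by at least 1 over all cells. Over all cells, 0 of 8 genes were higher in the autopod by at least 1 (6.06% of all genes), and 2 of 8, Fstl1 and Tgfb2, were lower by at least 1 (13.4% of all genes). Within NXT0143, 0 of 8 passed in either direction on the normalized scale, where 18.4% of all genes were higher and 9.21% lower, while on CPM Tgfbr1 (-1.18) and Tgfbr2 (-1.04) were lower by at least 1 (14.7% of all genes on CPM) and 0 were higher (15.9%). Between autopod NXT0072 and zeugopod NXT0142, 0 were higher (6.64% of all genes) and 2 lower (24.3%). Median differences of all genes were -0.12 over all cells, 0.18 within NXT0143 and -0.34 between the other runs, and medians of the 8 genes were -0.50, -0.20 and -0.62. On CPM the medians were -0.29, -0.02 and -0.41 for all genes and -0.58, -0.48 and -0.74 for the 8 genes. Between autopod runs, Tgfbr1 was higher by at least 1 in NXT0072 (11.8% of all genes) and Fstl1, Tgfb2, Tgfb3 and Tgfbi were lower (22.2%). Between zeugopod runs, Tgfb2 was higher by at least 1 in NXT0142 (15.1% of all genes) and 0 genes were lower (1.1%). On CPM Tgfb2 stood at 0.90 there, so that 0 were higher (9.62% of all genes on CPM) and 0 lower (3.53%). The comparisons over all cells and by run share cells.

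Cells were next divided by the presence of at least 3 of the 5 cartilage markers Sox9, Col2a1, Acan, Col9a1 and Matn1. These markers were met in 35 autopod cells (46.1%) and 38 zeugopod cells (30.9%). Sox9 was the most abundant of them in both tissues, and Matn1 was at 0 in the autopod. Tgfb2 was detected in 22 of 35 autopod cells with the markers (62.9%, 44.9 to 78.5%) and in 9 of 41 without (21.95%, 10.6 to 37.6%). The same order was found in both autopod runs, with 59.3% against 18.8% in NXT0072 and 75.0% against 33.3% in NXT0143. The cells with markers had the lower number of genes detected, at medians of 3390 and 3890. In the zeugopod, Tgfb2 was as common without the markers (62.4%, 51.2 to 72.6%) as in the autopod cells with them, and it reached 73.7% (56.9 to 86.6%) in the cells with them. Over all cells, the scarcity of Tgfb2 in the autopod thus lay mainly in cells without cartilage markers. Within NXT0143, detection without them was 3 of 9 autopod cells (33.3%, 7.49 to 70.1%) and 28 of 46 zeugopod cells (60.9%, 45.4 to 74.9%). The intervals overlapped. In the zeugopod by run, it was 78.9% with the markers against 64.1% in NXT0142, and 68.4% against 60.9% in NXT0143. The level of Tgfb2 with the markers differed there by 1.37 and -0.36.

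Tgfbi, the target gene, had the same leaning. It was detected in 21 of 35 autopod cells with cartilage markers (60%, 42.1 to 76.1%) and in 11 of 41 without (26.8%, 14.2 to 42.9%), and in 57.9% (40.8 to 73.7%) against 30.6% (21.05 to 41.5%) of zeugopod cells. In the zeugopod the difference came from NXT0143, at 78.9% against 19.6%, while NXT0142 had 36.8% against 43.6%. Tgfbr1 leaned the other way in the zeugopod, at 31.6% (17.5 to 48.7%) with the markers against 52.9% (41.8 to 63.9%) without, and was even in the autopod (45.7% against 46.3%). Inhba was found in 25.7% against 7.32% of autopod cells, a leaning that autopod NXT0143 (0 of 8 against 2 of 9) did not share, and in 0 of 38 against 9 of 85 zeugopod cells. Fstl1 was detected in most cells on both sides of this division, at 88.6% against 90.2% in the autopod and 97.4% against 98.8% in the zeugopod. Its level was lower by 1.06 in the autopod cells with the markers (8.22 against 9.27), at -1.48 in NXT0072 but 0.30 in NXT0143, and differed by 0.18 in the zeugopod.

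**Figure D4:**
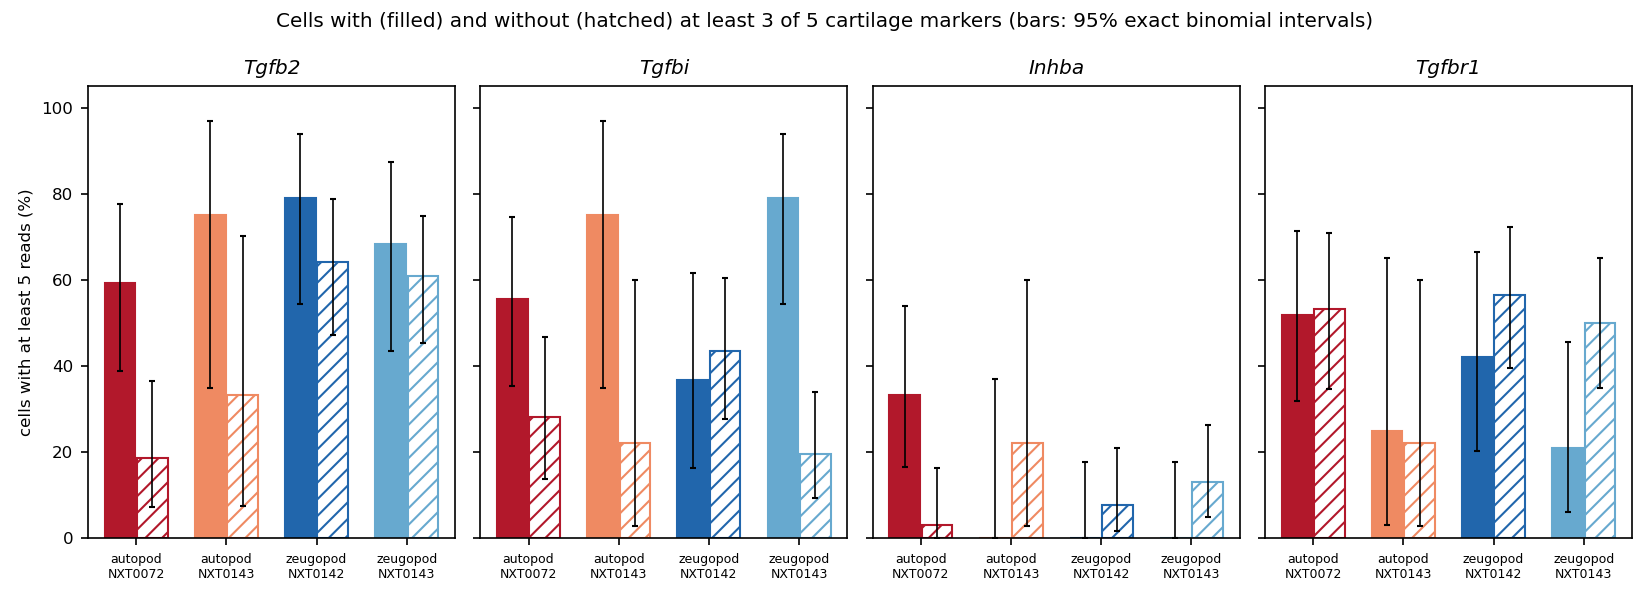
Share of cells with at least 5 reads (y axis, percent) among cells with (filled) and without (hatched) at least 3 of 5 cartilage markers, by tissue and run, with 95% exact binomial intervals. Tgfb2 was more frequent with the markers in both autopod runs (59.3% against 18.8% and 75.0% against 33.3%), and Tgfbi in all sets except zeugopod NXT0142.

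The other divisions of cells touched the receptors and the cell cycle. At least 2 of the tendon markers Scx, Tnmd and Tnc were found in 17 zeugopod and 0 autopod cells, and Tgfbr1 was detected in 12 of those 17 (70.6%, 44.04 to 89.7%) against 42.5% (32.9 to 52.4%) of the other zeugopod cells. In 23 zeugopod cells with at least 3 of the 4 cycling markers, Tgfbr1 was detected in 69.6% (47.1 to 86.8%) against 41% (31.3 to 51.3%) of the others, but these cells also had more genes detected, at medians of 5053 and 3901. The contrast came mainly from NXT0143, with 8 of 9 cells (88.9%) against 33.9%, while NXT0142 had 57.1% against 50%. In 18 cycling autopod cells, with medians of 4171 against 3402 genes, Tgfb2 was found in 3 cells (16.7%, 3.58 to 41.4%) and Tgfbi in 2 (11.1%, 1.38 to 34.7%), against 48.3% and 51.7% of the others. Of those 18 cells, 16 were from NXT0072. Tgfbi did not follow in the zeugopod, where it was found in 60.9% of cycling cells (38.5 to 80.3%) against 34% of the others, mainly by NXT0142 (71.4% against 31.8%) and less by NXT0143 (44.4% against 35.7%). The connective tissue markers were met in 62 zeugopod cells and 1 autopod cell, and in the zeugopod Tgfb2 was detected in 61.3% of them and 70.5% of the others. Among 17 interdigit cells of the autopod, Tgfbr2 was detected in 3 (17.6%, 3.80 to 43.4%), against 1 of 59 others, but these cells also had more genes detected, at medians of 4504 and 3414. By run, these were 2 of 11 against 0 of 48 in NXT0072 and 1 of 6 against 1 of 11 in NXT0143.

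Around these genes, the rest of the pathway was described by lists. Of 9 other ligand and inhibitor genes, 2 had normalized values and over all cells 0 were higher in the autopod by at least 1 (6.06% of all genes) and 0 lower (13.4%). Inhbb, for a further activin subunit, was detected in 0 cells. Gdf11, a ligand of the same Smads that was looked up after its values were seen, was detected in 48 autopod and 60 zeugopod cells. Its difference was 2.36 within NXT0143 and -1.56 between the other runs.

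Of 7 other receptor genes, 5 had normalized values, 0 were higher in the autopod (6.06% of all genes) and 1 was lower (13.4%). This was Tgfbr3, the gene of betaglycan, a co-receptor that presents TGF-beta2 to its receptors. It was detected in 4 autopod cells (5.26%) and 55 zeugopod cells (44.7%), and its difference was -3.22 over all cells, -2.39 within NXT0143 and -3.97 between the other runs. Among the 7 receptor genes with normalized values, Tgfbr1 and Tgfbr2 included, it alone was past 1 in all 3 comparisons of tissues.

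Of 17 genes of latency and matrix storage, 13 had normalized values, 1 was higher in the autopod (6.06% of all genes) and 3 were lower (13.4%), with 2 and 4 within NXT0143 (18.4% and 9.21%). The further calls there, named after their values were seen, were Itgav, at 1.24 but -1.02 between the other runs, and Bgn, at -1.52 but 0.08 between the other runs. The gene that was higher was Ltbp1, for a protein that tethers latent TGF-beta to matrix, with a difference of 1.27 over all cells and 1.77 within NXT0143. The genes that were lower were Dcn (decorin, a proteoglycan that binds TGF-beta) at -2.49, Thbs1 (thrombospondin 1, which can release it) at -1.68 and Fbn2 (fibrillin 2) at -1.56. All 3 were also lower within NXT0143, at -2.71, -1.97 and -1.16.

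Of 14 Smads and regulators, 13 had normalized values, 4 were higher in the autopod (6.06% of all genes) and 0 were lower (13.4%), with a median of 0.37 against -0.12 over all genes. Those higher were Bambi, for a pseudoreceptor that dampens the signal, at 1.55, Skil, for the Smad corepressor SnoN, at 1.53, Smad4, for the shared Smad, at 1.20 and Tgif1, for another corepressor, at 1.09. Within NXT0143 Skil stood at 2.83, Bambi at 0.90, Smad4 at 0.39 and Tgif1 at 0.28, and on CPM Tgif1 turned to -0.08 there. Smad7 (1.93) and Trim33 (1.46) also passed there, so that 3 were higher (18.4% of all genes) and 0 lower (9.21%). Between the other runs 4 were higher (6.64%) and 2 lower (24.3%). Those higher there were Bambi (1.67), Smad4 (1.65), Smad2 (1.03, named after its values were seen) and Tgif1 (1.02), while Skil stood at 0.52 and did not pass. Those lower were Pmepa1 (-1.14) and Trim33 (-1.21).

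Of 12 other genes for proteins with follistatin-like domains, 9 had normalized values, 0 were higher in the autopod (6.06% of all genes) and 2 were lower (13.4%). On CPM Spock3 (-1.03) was lower as well, which made 3 (19.8% of all genes on CPM). Smoc2 was at -2.10 over all cells and -2.68 within NXT0143. Sparc, named after its values were seen, was at -2.31 over all cells but at 0.57 within NXT0143, and at -3.67 between the autopod runs. Sparc thus had the run pattern of Fstl1, with detection in 19 of 59 autopod cells of NXT0072 and 12 of 17 of NXT0143.

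Of 15 TGF-beta response genes, 12 had normalized values, 0 were higher in the autopod (6.06% of all genes) and 6 were lower (13.4%), and the median of the 12 was -1.12. On CPM 7 were lower (19.8% of all genes on CPM), with Postn at -1.25. Within NXT0143, 4 were higher (18.4% of all genes) and 4 lower (9.21%), but on CPM 3 were higher (15.9%) and 7 lower (14.7%), as Fn1 (-1.58), Postn (-1.07) and Lox (-1.06) were lower too. Between the other runs 0 were higher (6.64%) and 7 lower (24.3%). Col1a1 (-4.39), Col3a1 (-3.88), Col1a2 (-2.58), Tnc (-1.84) and Scx (-1.26) were lower in the autopod, and within NXT0143 they stood at -3.72, -4.19, -2.71, -2.00 and -0.74. Of these, 4 are matrix genes, and Scx encodes a tendon transcription factor, so that they also mark connective tissue and tendon cells. The sixth gene, Ccdc80, named after its values were seen, was at -1.64 over all cells and at 1.39 within NXT0143. The others that were higher there, also named after their values were seen, were Cyr61 (2.92), Junb (2.76) and Ctgf (1.0018, or 0.84 on CPM).

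The genes whose values over cells were most like those of Fstl1, Tgfb2 and Tgfbi were sought among 2584 genes detected in no fewer than 25% of cells in each of the 4 sets. For Fstl1 they were Tpd52l2, Tra2b and Ergic2, with Spearman correlations of at least 0.23, 0.23 and 0.19 in each set. For Tgfb2 they were Tspan12, Jarid2 and Syt11, with at least 0.15, 0.12 and 0.11. For Tgfbi they were 0610037L13Rik, Zfp638 and Cdc42se2, with at least 0.23, 0.15 and 0.15. These cells share libraries and depth, and in sparse counts such weak correlations are no finding. Between Tgfb2 and Tgfbi, the correlation was 0.28 over 59 cells of autopod NXT0072, 0.32 over 17 cells of autopod NXT0143, -0.38 over 58 cells of zeugopod NXT0142 and -0.04 over 65 cells of zeugopod NXT0143.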

How the data were processed

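Single-cell RNA sequencing counts (raw read counts, deposited for 225 cells and with 92 spike-ins) were mapped by the authors to mm10 (GRCm38) with Bowtie2. The deposited normalized values (signal, 199 cells) are the authors' counts divided by a size factor per cell, plus 1, divided by gene length in kb. This form was checked with a size factor per cell recovered from the same reads and normalized values, so that the check is of the form only. By it, 99.66% of values lay within 1 of reads over the size factor, which values of 0 reads meet by form. Mean size factors recovered in this way were 1.24 in each run, where in NXT0143 they were 0.94 over autopod and 1.31 over zeugopod cells. By the authors' account the size factors come from the spike-ins. Spike-in totals under the cell names of the raw table did not follow the size factors (Spearman rho -0.07 over 199 cells), so the spike-in counts were not used and the size factors behind each level could not be rederived from the spike-ins.

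Python 3.11.15, pandas 2.3.3, numpy 2.4.6 and scipy 1.17.1 were used. Means of log2(value + 1) were subtracted. No test was made, since each tissue was 1 pooled sample. Members and lists were chosen with earlier results of these data known. Named genes were the 9 members, the genes of each pathway list past a difference of 1 with that direction within NXT0143 and between the other runs (up to 10 a list), and for members detected in no fewer than 25% of cells in each set the 3 genes with the highest minimum Spearman correlation over sets. Alternatives were counts per 1000000 reads on genes (CPM), pseudocounts of 0.1 and 10, subsets of runs and cells, other detection thresholds, thinning to 500000 reads (seed 42, 191 cells), every gene of the table and, added after seeing the data, equal weights for runs and the share of all genes on CPM. Some further list genes were named after seeing the data, where their call changed with the comparison or on CPM, but not every such gene was named. Gene positions are from GENCODE vM21. The subtraction of means was tried on simulated counts with known changes between tissues. The simulation had no runs, so it does not bear on telling run from tissue.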

Additional observations from a re-analysis of the deposited data

Results flagged for a closer look

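The tissue difference pointed in opposite directions in the pair of run comparisons for 5 genes on the normalized scale, and the contrast between these was not tested. For Fstl1 it was 0.24 within NXT0143 and -3.17 between autopod NXT0072 and zeugopod NXT0142. The corresponding values were 0.59 and -0.55 for Tgfb3, 0.76 and -0.89 for Tgfbi, -0.83 and 0.43 for Tgfbr1, and -0.00568 and 0.73 for Inhba. On CPM 3 of these genes kept opposite signs, while Fstl1 stood at -0.21 and -3.13 and Inhba at 0.29 and 0.69, each with 1 sign. Among the 26 cells left without normalized values, which no comparison used, 23.1% had at least 5 reads of Fstl1. This was listed because it exceeds the 11.5% that a count of 0 allows, and it says only that reads were present.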

How the results depend on the processing

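Over 10 other settings and equal weighting of runs, which was added after seeing the data, the lower level of Fstl1 in the autopod ran from -3.17 to -0.10, except within NXT0143, where it was 0.24; the cause was not tested. It was -0.10 without the autopod cells of NXT0072 and -1.46 with runs weighted equally. Tgfb2, Fst and Tgfbr2 kept a lower level in the autopod in all 11 settings, while Inhba changed sign in 2, Tgfbi in 2, Tgfb3 in 3 and Tgfbr1 in 3. The number of genes lower in the autopod by at least 1 was 2 (Fstl1 and Tgfb2), but 0 within NXT0143. Without the autopod cells of NXT0072 neither passed, and Tgfbr1 alone did at -1.19, against 0.38 over all cells. Without the cells with cartilage markers it was 3, as Tgfb3 passed at -1.12. With a difference of 0.5 it was 4 and with 2 it was 1, as the threshold itself sets. The number higher in the autopod was 0 in all settings run. The run difference of Fstl1 in the zeugopod, 0.73, became 0.0193 on CPM and -0.0592 after thinning, and the cause was not tested. In the autopod it ran from -3.32 to -1.86. Of 88 alternative shares of cells, 81 lay within the interval of the main share. With every gene of the table, 2.83% and 6.26% of genes passed a difference of 1 in place of 6.06% and 13.4%, and on CPM, added after seeing the data, 5.41% and 19.8%. Tgfb1 had no normalized value and so no difference, and the blood list could not be applied. Detection of the rarer genes is limited by depth and by the 17 autopod cells of NXT0143.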
